A study of Xenopus tropicalis with 18 samples.

Results

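The experiment set 2 libraries of Sox3 morphants at the late blastula (Nieuwkoop-Faber stage 9) against 2 control libraries of that stage, 4 of the 18 libraries of a bulk RNA-seq series in X. tropicalis. The libraries were chosen by factor, condition and stage, and each morphant library was paired with the control library of its replicate number. All 18 libraries were made from poly(A) RNA of whole wild-type embryos fertilised in vitro, and the other 14 held Sox3 knockdown at the early gastrula (stage 10.5) and Foxi2 knockdown at both stages, each beside controls of its own. The morphants carried a Sox3 morpholino, an antisense oligonucleotide that blocks translation of the mRNA, placed on the animal side at the 1-cell or the 2-cell stage. The sample labels give a morpholino as the treatment of the control libraries too, whereas the study speaks of wild-type controls, so whether the controls were injected is not settled. None of the 18 libraries is labelled as a mismatch morpholino or a rescue. The labels do not say what a replicate number marks or whether replicates came from separate clutches, so the p-values speak for these libraries only. With the pairs as a block, they measure the spread left once the level of each pair is removed, estimated with information from other genes.

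Sox3 is a SoxB1 transcription factor with an HMG-box DNA-binding domain. Its mRNA is laid down in the egg, is enriched on the animal side that becomes ectoderm, and is later restricted to the neural plate. The embryo relies on maternal mRNA until the mid-blastula, when its own genome is switched on, and the late blastula holds the first zygotic transcripts of the ectoderm, mesoderm and endoderm. The comparison asks which of these transcripts rise or fall when less Sox3 protein is made. In RNA from whole embryos, fewer cells of a type and less RNA per cell cannot be told apart.

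The 4 libraries held between 23866050 and 27866261 expected counts over 28850 genes, and 13909 genes were abundant enough to test. Of the germ layer markers that were listed, 29 of 34 passed this filter, ectodermal, mesodermal, organizer, endodermal and germ plasm genes among them. The replicate number accounted for more of the spread than the knockdown: 77.2% of the variance in log2 CPM (the read count of a gene scaled to the library total) lay between the replicate numbers and 16.0% between morphants and controls, and the deviations of same-numbered libraries from their group means had a Pearson correlation of 0.838 over genes, which are not independent replicates. Of 12218 genes with a mean of at least 1 CPM in the controls, 983 differed at least 2-fold between the 2 control libraries, and 713 of these differed at least 2-fold the same way between the 2 morphant libraries. The bone morphogenetic protein inhibitor gene szl, for example, stood at 2.71 and 6.93 CPM in controls 1 and 2 and at 0.777 and 4.04 CPM in morphants 1 and 2. The changes are therefore given within pairs, and the fit carried the replicate number as a block.

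The sox3 transcript itself was not reduced. The gene, on chromosome 8 from 55346463 to 55348089 of the UCB_Xtro_10.0 assembly, was at 991 and 921 CPM in the 2 morphant libraries and at 692 and 625 CPM in the 2 controls. Both morphants lay above both controls, by 0.52 and 0.56 on the log2 scale in pairs 1 and 2. The fitted log2 fold change was 0.54 (SE 0.08, n = 2 pairs; adjusted p = 0.0047 by edgeR's quasi-likelihood test), a rise of 1.45-fold in the mean CPM and under the 2-fold threshold, and without the block the adjusted p was 0.832 by edgeR and 0.00497 by DESeq2. A morpholino that blocks translation need not lower its target mRNA, so the transcript is no measure of how far the protein was depleted.

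More genes were lower than higher in the morphants. With the pairs as a block, 140 of 13909 genes fell (1.01%) and 43 rose (0.309%), counting genes with an adjusted p under 0.05 and a change of at least 2-fold. By the adjusted p alone, 261 were lower (1.88%) and 100 higher (0.719%). All 140 lower genes were below 0 in both pairs, 114 of them at least 2-fold in each (153 of all genes were), and in 136 both morphants lay under both controls, which 11.4% of all genes did. Of the 43 higher genes, 42 were above 0 in both pairs, 34 at least 2-fold in each (63 of all genes were), and in 42 the morphants lay above both controls without overlap, against 11.0% of all genes. The lower genes had a median log2 fold change of -1.95, and 65 of the 140 fell at least 4-fold, while the median of all genes tested was 0.00. They were not abundant: their median level in the controls was 8.56 CPM against 27.7 CPM over all genes, and 7 had no count in either morphant library. Symbols were given for 89 of the lower genes and for 13 of the higher genes, and the rest carried LOC numbers. The plot of the pair changes shows the size of the change in each pair, and cyp46a1.3 as the called gene of opposite signs.

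**Figure D1:**
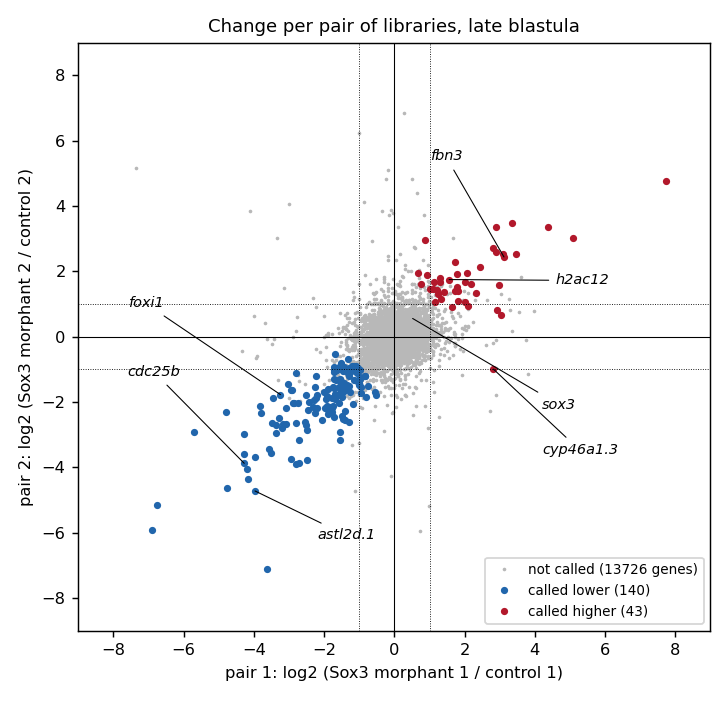
Each point is 1 of the 13909 genes tested, placed by the log2 change of CPM (prior count 2) between morphant and control in pair 1 (horizontal axis) and pair 2 (vertical axis), with dotted lines at 2-fold. The 140 genes called lower (blue) lie below 0 in both pairs, and of the 43 genes called higher (red) all but 1 lie above 0 in both.

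The number of calls depended on the pairing and the tool. Without the block edgeR called 0 genes in either direction, with a smallest adjusted p of 0.259. An unadjusted p under 0.05 was found for 392 of the 13909 genes. That is a smaller share than the 0.05 that falls there when no gene differs. Among the 392 were 125 of the 140 lower and 37 of the 43 higher genes. DESeq2 with the replicate number in its design called 89 genes lower (0.714% of 12457) and 16 higher (0.128%), all of which edgeR had called too. DESeq2 without the number called 61 lower (0.388% of 15716) and 7 higher (0.0445%), which were again among the genes called by edgeR with the block.

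The following genes are those with the largest falls among genes with a symbol, at least 2-fold in both pairs and at a mean of at least 1 CPM in the controls. cdc25b, which encodes a phosphatase that activates the mitotic kinase Cdk1, was at 3.07 and 2.88 CPM in morphants 1 and 2 and at 60.95 and 43.2 CPM in controls 1 and 2. The log2 fold change was -4.12 (SE 0.14, adjusted p = 2.13e-07), or 17.4-fold by the fit. lpar6, a receptor for lysophosphatidic acid, stood at 5.08 and 3.73 CPM against 58.6 and 44.6 CPM and fell by 3.55 on the log2 scale (adjusted p = 2.13e-07). In both genes the pair changes were close to each other, -4.28 and -3.87 for cdc25b and -3.51 and -3.55 for lpar6, and no morphant came near a control. They had the smallest adjusted p of all genes tested.

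gatm, the enzyme of the first step of creatine synthesis, fell from 8.97 and 9.49 CPM in the controls to 0.424 and 0.389 CPM in the morphants (log2 fold change -4.49, adjusted p = 5.49e-06). tat, tyrosine aminotransferase, which opens the breakdown of tyrosine, fell from 30.5 and 27.9 CPM to 5.33 and 3.81 CPM (-2.68, adjusted p = 5.25e-06). A pair of genes for astacin-like metalloproteases fell together: astl2d.1 went from 7.197 and 9.11 to 0.388 and 0.272 CPM and astl2c from 4.57 and 6.32 to 0.177 and 0.311 CPM, with log2 fold changes of -4.58 and -4.47. The 2 genes are members of 1 family on chromosome 4. The expected counts of astl2d.1 were not whole, so its reads may have been divided with alike copies, and its level is uncertain. Those of astl2c were whole. rnf31, an E3 ubiquitin ligase, was at 6.21 and 6.103 CPM in the morphants, against 29.9 and 30.8 CPM in the controls, with pair changes of -2.25 and -2.32. The libraries of each group thus lay within a narrow band for rnf31. The groups did not overlap for any of these genes, which were chosen for large falls in both pairs.

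Among the signalling genes, apela, which encodes a secreted peptide ligand of the apelin receptor, fell from 8.23 and 8.32 CPM to 1.41 and 0.544 CPM (log2 fold change -3.098, adjusted p = 0.000232). s1pr5, a receptor for sphingosine-1-phosphate, was far lower in abundance, at 2.02 and 1.09 CPM in the controls and 0.282 and 0.117 CPM in the morphants (-2.94, adjusted p = 0.0045). gmnc, whose product starts the programme of multiciliated cells, stood at 0.987 and 1.02 CPM against 0.0706 and 0.194 CPM (-2.91, adjusted p = 0.0166). At these levels a library held few reads of the gene, and the fold is loosely fixed, but the direction was the same in both pairs. The orphan receptor gene gprc5a had 3 and 0 counts in the morphants and 32 and 25 in the controls, a control-to-morphant ratio of 20.2 (95% counting interval 6.57 to 101). spaca5 had 0 and 3 counts against 50 and 23, a ratio of 25.9 (95% counting interval 8.504 to 128). These intervals cover counting error only. The other genes of the 20 with the largest falls were cnfn.1, fndc10 and tcp10l2, at -2.56, -2.68 and -2.35 on the log2 scale, together with the transcription factor genes below. In none of the 20 did a morphant reach a control, but they were chosen for large falls in both pairs. DESeq2 with the replicate number called 13 of the 20 and gave no adjusted p for 5. Both morphants lay under both controls in 11.4% of all genes tested.

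Of the lists of tissues and pathways, that of neural plate transcription factors held the largest share of lower genes. Of 37 listed factors that could be tested, 9 fell (24.3%) and 0 rose, beside 1.01% and 0.309% of all genes, and the median log2 fold change of the list was -0.41 against 0.00 over all genes. zic4, a zinc-finger factor of the neural plate, fell from 7.61 and 3.65 CPM in the controls to 0.318 and 0.233 CPM in the morphants (-4.31, SE 0.33, adjusted p = 3.85e-05). Control 1 was the higher of the controls, and morphants 1 and 2 lay far below either control. The expected counts of zic4 were not whole, so its reads may have been divided with other genes. Its relatives zic2 and zic5 did not pass the test: zic2, at 196 and 199 CPM in the controls, stood at 206 and 243 CPM in the morphants (0.18, adjusted p = 0.565), and zic5 had a log2 fold change of -0.41 (adjusted p = 0.739).

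The forkhead gene foxd4l1.1, which holds neural plate cells in an immature state in Xenopus, fell from 36.2 and 23.9 CPM to 3.42 and 3.58 CPM (log2 fold change -3.08, adjusted p = 5.25e-06). Its neighbour foxd4l1.2 had 28 and 19 counts in the controls and 3 and 3 in the morphants, a ratio of 8.32 (95% counting interval 3.55 to 23.8). The 2 copies are alike, but their expected counts were whole in these libraries and show no division of reads. lhx5, a LIM-homeodomain factor of the forebrain, was at 27.9 and 28.9 CPM in the controls and 7.84 and 6.41 CPM in the morphants (-1.997, adjusted p = 1.7e-05). Here the controls almost coincided, and so did the morphants. neurog3, a proneural basic helix-loop-helix factor, had 27 and 24 counts in the controls and none in the morphants, at least 9.05-fold lower against a floor of 3 counts per library. The Iroquois homeobox genes irx1 and irx2 fell by 1.51 and 1.83 on the log2 scale, irx1 from 19.9 and 20.7 CPM to 6.001 and 8.44 CPM.

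Some factors of the same territory did not pass the test. otx2, a head organiser and forebrain factor, was at 1.69 and 1.83 CPM in the morphants, against 1.81 and 1.92 CPM in the controls, and the libraries of the groups interleaved. gmnn, the cell cycle and neural regulator geminin, stood at 1078 and 1413 CPM against 1279 and 1486 CPM (-0.16, adjusted p = 0.611). foxb1 (-2.59, adjusted p = 0.0751) and olig4 (-2.76, adjusted p = 0.0928) had large negative values on few reads, with 1 and 3 counts of olig4 in the morphants and 16 and 11 in the controls. DESeq2 with the replicate number called 6 of the 9 lower factors and gave no adjusted p for 2 of them, neurog3 and foxd4l1.2, after its own filter.

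**Figure D2:**
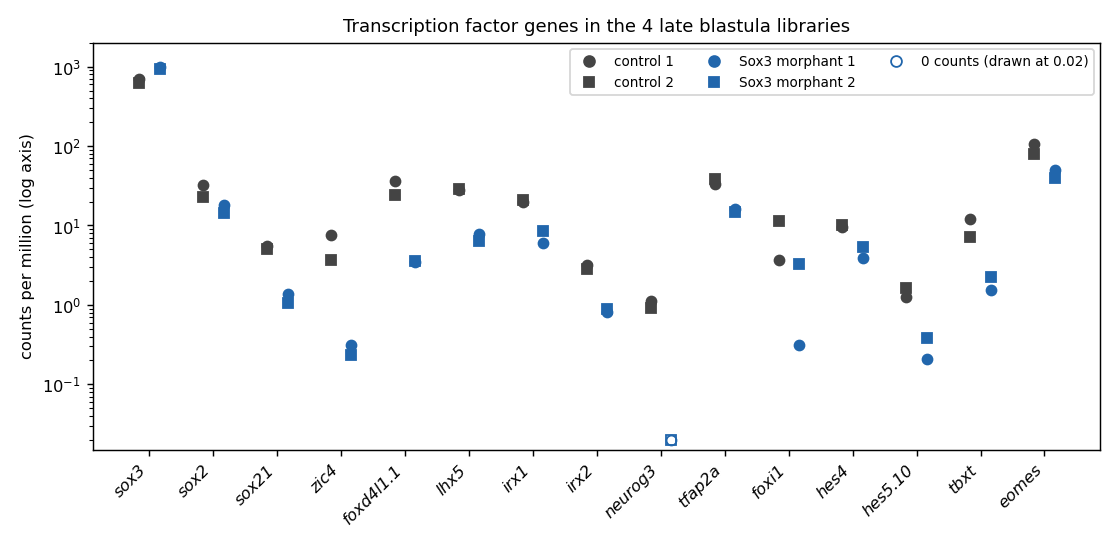
CPM on a log axis for 15 transcription factor genes in the 2 control libraries (grey) and the 2 Sox3 morphant libraries (blue), with circles for pair 1, squares for pair 2 and open symbols for 0 counts. sox3 lies higher in both morphants, sox2 is below the controls but changed less than 2-fold, and the other 13 genes lie below both controls in both morphants.

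Within the Sox family the fall was seen in sox21. Of 13 Sox genes tested 1 fell and 0 rose, and the median of the list was -0.01. sox21, a SoxB2 factor that represses transcription, was at 1.38 and 1.05 CPM in the morphants, against 5.59 and 5.08 CPM in the controls (-2.14, SE 0.24, adjusted p = 0.000727). sox2, the SoxB1 relative of sox3, was reduced by less than the 2-fold threshold, from 31.9 and 22.5 CPM to 18.2 and 14.5 CPM (-0.73, adjusted p = 0.00613). For the SoxC genes the adjusted p stayed above 0.05: sox11 stood at -0.35 (adjusted p = 0.0892) and sox4 at 0.25 (adjusted p = 0.62). The endodermal sox17a was at 23.3 and 29.9 CPM against 27.6 and 31.2 CPM, with overlapping groups.

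The next list was that of the non-neural ectoderm, which becomes epidermis. Of 37 genes tested 6 fell (16.2%) and 0 rose, with a median of -0.21. tfap2a, an activator of epidermal and neural crest genes, was at 16.1 and 14.7 CPM in the morphants, against 33.1 and 38.2 CPM in the controls (-1.21, SE 0.12, adjusted p = 0.000353). The keratin gene krt7 fell from 40.6 and 26.2 CPM to 21.04 and 8.98 CPM (-1.22, adjusted p = 0.000964), by 2-fold or more in pair 2 only. foxi1, which specifies the ionocytes of the Xenopus epidermis, shows how much the pairs differed in level: control 1 held 3.66 CPM and control 2 11.3 CPM, and morphants 1 and 2 held 0.318 and 3.27 CPM. Morphant 2 thus came close to control 1, while the fall within each pair was -3.25 and -1.77 on the log2 scale (adjusted p = 0.00235). olfm4, upk3b and prdm1 were the other 3, at -1.73, -2.26 and -1.11. DESeq2 with the replicate number called 4 of the 6, and its adjusted p was 0.581 for upk3b and 0.61 for prdm1.

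Most epidermal genes did not pass the test. The lowest log2 fold change of the list, -3.50, was in a gene that was not called. The Grainyhead factor gene grhl3 was at 30.9 and 30.7 CPM in the morphants, against 35.6 and 42.4 CPM in the controls (adjusted p = 0.222). klf5, a zinc-finger factor of epithelia, and gata2, a factor of ventral ectoderm and blood, had log2 fold changes of 0.04 and -0.12, with overlapping groups. The keratin gene krt70 (-0.25) and E-cadherin, cdh1 (-0.31), overlapped between the groups as well. dlx5, a homeobox factor of the ectoderm border, was below both controls in both morphants, at 3.21 and 1.94 CPM against 5.43 and 3.65 CPM, and missed the threshold (adjusted p = 0.0963). tp63 and dlx3, which are needed for epidermal stem cells and the ectoderm border, had at most 7 counts in any library and were not tested.

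A list of 19 genes was taken from those that the study ties to Sox3, alone or together with Foxi2. It is not complete: it leaves out igf3 and prdm14, which were too low to be tested, and tp53inp2, which had a log2 fold change of -0.13 (adjusted p = 0.849). The genes were drawn from these samples and are not independent evidence of a direction. Of the 14 that could be tested 9 fell, 0 rose and 14 were below 0. The 5 that were not tested held few reads, and cdx4, with 0 and 1 counts in the morphants and 11 and 7 in the controls, and olig3, with 2 and 3 against 20 and 8, had the most. hes5.1 had 2 counts in each morphant and 4 and 9 in the controls, too few to compare.

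The Notch list gave 2 lower genes of 25 tested and 0 higher, with a median of -0.07. Both were hes genes, repressors of the basic helix-loop-helix class, many of which act downstream of Notch. hes4 fell from 9.67 and 10.3 CPM to 3.88 and 5.29 CPM (-1.13, adjusted p = 0.00411) and hes5.10 from 1.27 and 1.62 CPM to 0.212 and 0.389 CPM (-2.27, adjusted p = 0.0151). DESeq2 with the replicate number called neither, with an adjusted p of 0.083 for hes4 and 0.647 for hes5.10. hes5.10 belongs to a cluster of hes5 copies, but its expected counts were whole in these libraries and show no division of reads. The Notch ligand gene dlc stood at 1.48 and 1.13 CPM in the morphants, against 0.781 and 0.791 CPM in the controls (0.72, adjusted p = 0.566).

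Mesodermal genes gave 3 lower of 45 tested (6.67%), with a median of -0.16 and 0 higher. tbxt, Brachyury, the T-box factor of the mesoderm, was at 1.55 and 2.25 CPM in the morphants, against 12.2 and 7.19 CPM in the controls (-2.32, SE 0.28, adjusted p = 0.000958). Its copy tbxt.2 had 0 and 1 counts against 11 and 17, a control-to-morphant ratio of 29.7 (95% counting interval 4.92 to 1216). The expected counts of both copies were whole in these libraries and show no division of reads. eomes, a T-box factor of mesoderm and endoderm, fell from 108 and 78.6 CPM to 49.7 and 40.2 CPM (-1.04, adjusted p = 0.000142), just past 2-fold. A further 6 genes of the list had an adjusted p under 0.05 at less than 2-fold, among them wnt8a (-0.55), a ventral Wnt ligand, and dusp6 (-0.84), a phosphatase that dampens fibroblast growth factor signalling. Of the 3 lower genes, DESeq2 with the replicate number called tbxt and eomes and gave no adjusted p for tbxt.2. vegt, a maternal T-box factor of the vegetal side, stood at 583 and 701 CPM against 600.4 and 692 CPM.

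No gene of the 2 dorsoventral lists was called. Of 19 organizer genes 0 passed the 2-fold threshold, 3 had an adjusted p under 0.05, all lower, and the median was -0.26. chrd.1, chordin, which binds and blocks bone morphogenetic proteins (BMPs), stood at 33.9 and 33.00 CPM against 78.6 and 50.8 CPM (-0.92, adjusted p = 0.00342), and admp, a BMP-like ligand of the organizer, at -0.71 (adjusted p = 0.0137). gsc, nog and sia1 fell short of the threshold, and their changes lay nearly wholly in pair 1, at -0.96 and 0.04 in pairs 1 and 2 for gsc, -0.68 and 0.01 for nog and -1.198 and -0.01 for sia1. Of 26 genes of the BMP pathway and ventral side 6 had an adjusted p under 0.05, all lower and by less than 2-fold, with a median of -0.13 for the list. szl, whose values are given above, was beyond 2-fold at -1.15 and did not pass the test (adjusted p = 0.0552). bmp4, the ventral BMP ligand, was at 19.3 and 19.8 CPM in the morphants, against 39.5 and 38.2 CPM in the controls, at the edge of the threshold (-0.99, adjusted p = 0.000527). 4 ventx genes, homeobox repressors induced by BMP, ranged from -0.94 to -0.69.

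Endodermal genes gave 2 lower of 32 tested (6.25%), eomes and a2ml1, an alpha-2-macroglobulin-like protease inhibitor (-1.78, adjusted p = 0.0254), and a median of -0.07. DESeq2 with the replicate number called eomes but not a2ml1 (adjusted p = 0.922). gata6, an endodermal zinc-finger factor, was at 11.4 and 10.7 CPM in the morphants, against 12.1 and 12.01 CPM in the controls. The Nodal ligand gene nodal5 was at 11.1 and 10.5 CPM against 9.95 and 11.5 CPM, with groups that overlapped. hhex, a homeobox factor of the anterior endoderm, was above the controls in both pairs, by 0.50 and 0.58, and did not pass the test (adjusted p = 0.593). The lowest log2 fold change of the list, -2.61, was in a gene that was not called.

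Maternal transcripts lay near their control levels. Of 31 maternal regulators of zygotic activation 0 passed 2-fold, with a median of -0.01, and 2 had an adjusted p under 0.05, sox3 itself and cdk9, a kinase of transcription elongation, at -0.52 (adjusted p = 0.00784). foxi2, the maternal forkhead factor of the animal side, stood at 352 and 389 CPM in the morphants, against 406 and 379.5 CPM in the controls. foxh1, the forkhead partner of Nodal signalling, was at 763 and 791 CPM against 709.7 and 741 CPM. The POU factor genes pou5f3.1, pou5f3.2 and pou5f3.3 had log2 fold changes of -0.27, -0.21 and -0.05, with adjusted p from 0.332 to 0.935. The 24 germ plasm transcripts, which are maternal and vegetal, had a median of 0.01, and their log2 fold changes ran from -0.22 to 0.23. dazl, for one, was at 74.3 and 107 CPM against 81.2 and 114 CPM.

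**Figure D3:**
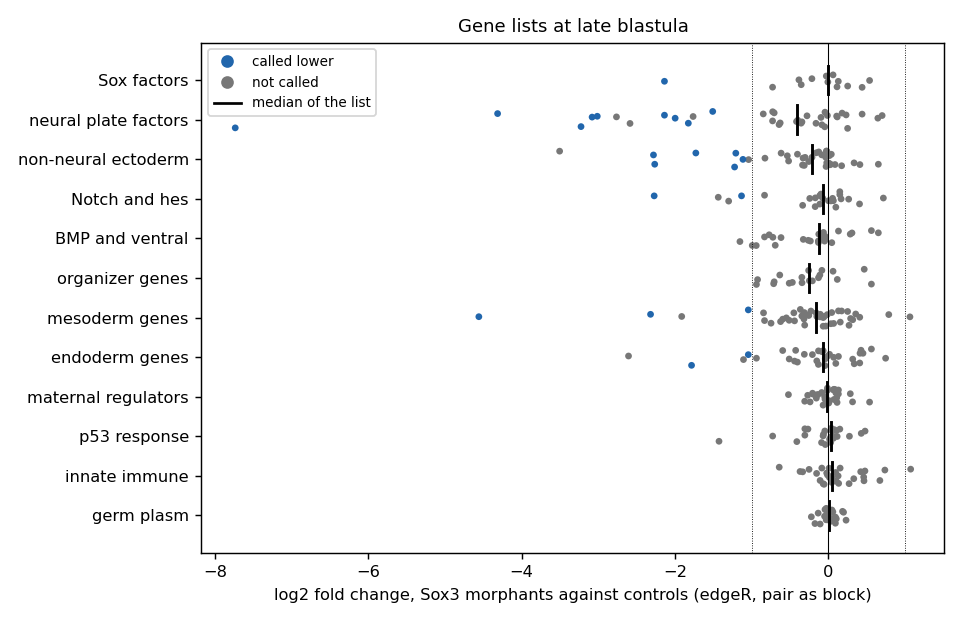
Log2 fold change of each gene tested in 12 gene lists, 1 row per list, with genes called lower in blue, other genes in grey, a black bar at the median of the list and dotted lines at 2-fold. The neural plate list has 9 blue points of 37 and the non-neural ectoderm list 6 of 37, while the maternal, p53, innate immune and germ plasm lists have none.

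A further set of lower genes is named here after their values were seen. Some act outside the cell or in its metabolism. sfrp2, a secreted Wnt-binding protein, fell from 29.3 and 26.6 CPM to 7.84 and 5.09 CPM (-2.13, adjusted p = 2e-05), and has2, a hyaluronan synthase, from 20.9 and 29.8 CPM to 5.19 and 9.25 CPM (-1.84). grhpr.2, a reductase of glyoxylate metabolism, fell from 100.1 and 57.8 CPM to 20.6 and 15.04 CPM (-2.12, adjusted p = 5.25e-06). ptgs2, a cyclooxygenase of prostaglandin synthesis, fell from 17.4 and 11.4 CPM to 5.12 and 3.85 CPM (-1.67), and hal.1, the first enzyme of histidine breakdown, from 6.42 and 6.14 CPM to 1.87 and 1.36 CPM (-1.96). angpt4 and angpt4.2, copies of a gene for an angiopoietin, a ligand of the Tie receptors, both had a log2 fold change of -1.87. At the early gastrula these copies stood at -3.37 and -0.37. The expected counts of both copies and of hal.1 were not whole, so their reads may have been divided with alike copies. In sfrp2, has2, grhpr.2, ptgs2, hal.1 and both angpt4 copies the morphants lay below both controls. The same held in 136 of the 140 lower genes and 11.4% of all genes. rasl11b was 1 of the 4 lower genes where the morphants did not lie below both controls. Its morphant 2, at 62.4 CPM, lay above control 1, at 45.8 CPM, since both libraries numbered 2 were higher.

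The 43 higher genes were fewer and mostly of low level or without a symbol. Their median log2 fold change was 1.73, their median control level was 1.098 CPM, and 21 had a control mean under 1 CPM. fzd3, a receptor for Wnt ligands, was the most abundant in the controls, at 14.4 and 18.6 CPM, and rose to 44.6 and 35.1 CPM in the morphants (1.27, SE 0.16, adjusted p = 0.00112). h2ac12, which encodes a core histone of the H2A class, rose from 6.33 and 5.01 CPM to 18.8 and 17.03 CPM (1.67, adjusted p = 8.96e-05), although reads of the alike H2A copies may have been divided among them. The morphants lay above both controls for both genes, as in 42 of the 43 higher genes and 11.0% of all genes.

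Among the scarcer higher genes, fbn3, a fibrillin of extracellular microfibrils, went from 0.123 and 0.188 CPM to 1.66 and 1.36 CPM (3.22, adjusted p = 0.00389). zc3h12a, an endoribonuclease that degrades mRNAs of inflammatory genes in mammals, went from 0.247 and 0.414 CPM to 1.55 and 1.17 CPM (2.01, adjusted p = 0.0401), and nipal1, a magnesium transporter, from 0.288 and 0.264 CPM to 1.38 and 1.01 CPM (2.09, adjusted p = 0.0306). tmem265 rose by 2.15 and kcnf1, a potassium channel subunit, by 1.601 on the log2 scale. irak2, a kinase of interleukin-1 receptor signalling, had no count in the controls and 14 and 10 counts in the morphants, at least 3.74-fold higher against the floor of 3 counts per library. These are few reads, and neither the fold of irak2 nor those of the genes around 1 CPM is well fixed. DESeq2 with the replicate number did not call zc3h12a or kcnf1. It gave no adjusted p for fbn3, nipal1, tmem265 and irak2. cyp46a1.3, a cytochrome P450 gene, was called higher on pair 1 alone: morphants 1 and 2 held 19.9 and 0 CPM and controls 1 and 2 held 2.76 and 0.0753 CPM, changes of 2.82 and -0.99. Without morphant 1 or control 1 its fitted change was negative, between -8.18 and -3.92 in the fits where the sign turned.

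The lists for responses that a morpholino can set off had medians near 0 at the late blastula. Of 25 genes of the p53 response 0 were called in either direction, with a median of 0.03, and bbc3, which encodes a promoter of apoptosis, was beyond 2-fold at -1.43 without passing the test (adjusted p = 0.396). mdm2 was at 41.5 and 70.5 CPM in the morphants, against 38.7 and 61.5 CPM in the controls, and cdkn1a, the cell cycle inhibitor p21, at 3.64 and 7.46 CPM and 4.195 and 9.26 CPM, so that both followed the replicate number and not the knockdown. 3 members had an adjusted p under 0.05 at less than 2-fold, sesn2 (0.48) and plk2 (0.43) above 0 and xpc (-0.73) below. Of 30 genes of the innate immune list 0 were called, the median was 0.05, and junb, an AP-1 factor, stood at 1.08 (adjusted p = 0.432). In that list fos alone had an adjusted p under 0.05 (0.48, adjusted p = 0.0166). The summed CPM of the innate list was 536 and 612 in the morphants against 497 and 582 in the controls. irak2 and zc3h12a, which were called higher, are not members of this list. At the early gastrula 2 of the 25 p53 genes and 3 of the 30 innate genes were called higher and 0 lower. Of all genes tested at both stages 1.41% were called higher there.

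The 4 Sox3 libraries of the early gastrula, which the late blastula calls did not use, gave the same contrast 1 stage later. Of the 139 lower genes tested there, 72 were lower by the same thresholds (51.8%, beside 1.25% of the 13535 genes tested at both stages), 129 had the same sign, and the median log2 fold change was -1.096. Of 42 higher genes 30 were higher there (71.4%, beside 1.41%) and 40 had the same sign, with a median of 1.66. In the set of 20 genes with the largest falls 17 were lower at the early gastrula too. neurog3 stood at 0.233 and 0.0974 CPM in the gastrula morphants and 6.89 and 4.88 CPM in the gastrula controls (-5.103, adjusted p = 1.3e-05), and gatm, astl2d.1 and sox21 at -2.66, -3.14 and -2.81 on the log2 scale. 1 lower gene was higher there, tcp10l2 (2.23, adjusted p = 0.0318).

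The effect differed between the stages by a test of the difference itself for 11 of 14903 genes, 6 with a more negative effect at the early gastrula (0.0403%) and 5 with a less negative or more positive one (0.0336%). 5 of the 11 were among the genes called lower at the late blastula, and no gene called higher was. The late blastula libraries that chose these genes also enter this difference, which favours an effect nearer to 0 at the later stage. cass4, a focal adhesion scaffold, fell from 14.6 and 14.8 CPM in the controls to 3.14 and 3.23 CPM in the morphants at the late blastula (-2.21), while the gastrula morphants held 149 and 149 CPM against 133 and 170.0 CPM (-0.02, adjusted p = 0.976), a difference between the stages of 2.198 (adjusted p = 0.0185). The gastrula morphants thus lay between the gastrula controls, which no morphant did at the late blastula. birc2, an inhibitor of apoptosis, went the other way, from -1.24 to -4.44 (difference -3.19, adjusted p = 0.0185). tbxt, eomes, has2 and irx1 had gastrula values of -0.38, 0.27, -0.29 and -0.26, none of which passed the test, and their difference between stages was not called. Without the block the test of the stage difference called 0 genes. It gave 284 of the 14903 genes an unadjusted p under 0.05, again a share smaller than 0.05. When 1 library was left out in turn, it called between 26 and 448.

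**Figure D4:**
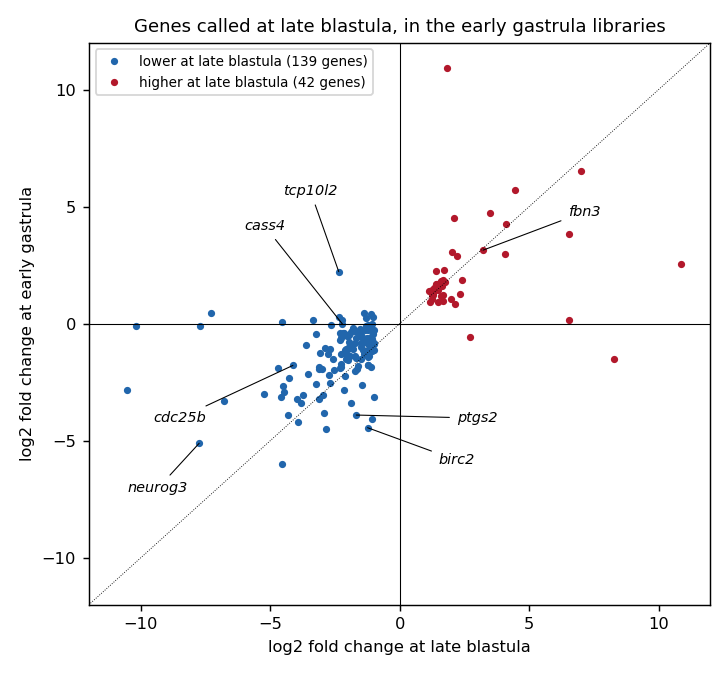
Log2 fold change of Sox3 morphants against controls at the late blastula (horizontal axis) and at the early gastrula (vertical axis) for the genes called at the late blastula and tested at both stages, 139 lower (blue) and 42 higher (red), with a dotted line where both are equal. 129 of the blue and 40 of the red points keep their sign, and cass4 lies near 0 at the early gastrula.

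Foxi2 knockdown at the late blastula, in 6 libraries of its own, gave the same genes another profile. Of the 131 lower genes tested there, 7 were lower in Foxi2 morphants (0.449% of all genes tested in both were) and 2 were higher, and their median log2 fold change was -0.02. Of 28 higher genes 5 were higher in Foxi2 morphants too (0.233% of all genes were). The test of the difference between the effects called 163 of 14316 genes, 125 with a more negative Sox3 effect (0.873%) and 38 with a more positive one (0.265%). 82 of the lower and 6 of the higher genes were among them, each with the difference in the direction of the Sox3 change. The Sox3 libraries that chose these genes also enter this difference. By list, the difference was called for 7 of the 9 lower neural plate factors and for 0 of the 6 lower genes of the non-neural ectoderm. It was called for 82 of all 139 lower genes in the fit, and the lists were not tested against each other. Of the 6, only 2 were called lower in Foxi2 morphants. In the test of the difference krt7 (-0.86, adjusted p = 0.0372) missed only the 2-fold threshold. upk3b (-2.16, adjusted p = 0.06) missed only that of the adjusted p. foxi1, tfap2a, prdm1 and olfm4 passed neither. foxi1 was among those not called, with 1.32, 1.27 and 3.197 CPM in Foxi2 morphants 1 to 3 and 4.99, 5.73 and 9.35 CPM in their controls (-1.84, adjusted p = 0.00977). lhx5 was called: it was at -0.24 in Foxi2 morphants (adjusted p = 0.497), a difference of -1.77 (adjusted p = 0.0024). olfm4, efna3 and grhpr.2 were lower under both, at -2.64, -2.14 and -1.25 in Foxi2 morphants. h2ac12 was higher under both, at 2.11 in Foxi2 morphants (adjusted p = 0.0231).

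The Foxi2 libraries of this stage were spread far apart by replicate number. lhx5 stood at 0.638, 56.6 and 146 CPM in Foxi2 controls 1, 2 and 3, and tbxt at 0.638, 37.5 and 269 CPM, so that the first pair of Foxi2 libraries could show little of a fall in such genes. The Sox3 controls, at 27.9 and 28.9 CPM of lhx5 and 12.2 and 7.19 CPM of tbxt, lay between Foxi2 controls 1 and 2. When 1 of the 6 Foxi2 libraries was left out in turn, the difference was called for between 96 and 237 genes. Without the block it was called for 0. An unadjusted p under 0.05 was then found for 133 of the 14316 genes, a share smaller than 0.05.

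When the Foxi2 controls of each stage were averaged, most of the lower genes rose between the stages. In the Foxi2 controls, which share no library with the calls, 91 of 135 lower genes rose at least 2-fold from stage 9 to stage 10.5 (67.4%, beside 8.04% of 12687 genes) and 0 fell as much (7.09% of all genes did), with a median rise of 1.75 on the log2 scale against 0.00 over all genes. Of the higher genes 9 of 29 rose. The count for the lower genes depended on the stage 9 library. With Foxi2 control 1, 2 or 3 alone it was 115, 68 and 6 of 135, or 85.2%, 50.4% and 4.44%. Of all 12687 genes 13.9%, 8.67% and 2.21% rose in these settings. Without control 1, 33 of 135 lower genes rose (24.4%, beside 4.71% of all genes), so that most did not. Read the other way, the 1020 genes that rose had a median log2 fold change of -0.11 in the Sox3 morphants, 91 of them were called lower (8.92%), and 709 were within 1.5-fold of the controls (69.5%). The share called lower grew with the size of the rise, from 5.58% of 591 genes that rose by 1 to 2 on the log2 scale to 17 of 100 genes that rose by 3 to 4.

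The summed level of the 920 rising genes that were not called was 16992 CPM in morphant 1 and 18703 CPM in control 1, and 14479 CPM in morphant 2 and 16364 CPM in control 2. It was therefore lower in the morphant of each pair, while morphant 1 lay above control 2. The same sum was 8399, 20854 and 51376 CPM in the 3 Foxi2 controls of stage 9, so the Sox3 libraries were near one another on this scale. Over all 1020 rising genes the sum was 17598 and 15047 CPM in morphants 1 and 2. It was 20611 and 18138 CPM in controls 1 and 2, so both morphants lay below both controls. This larger sum includes the 91 genes called lower, which were chosen for low values in the morphants. The part of developmental timing in the lower calls was not tested.

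**Figure D5:**
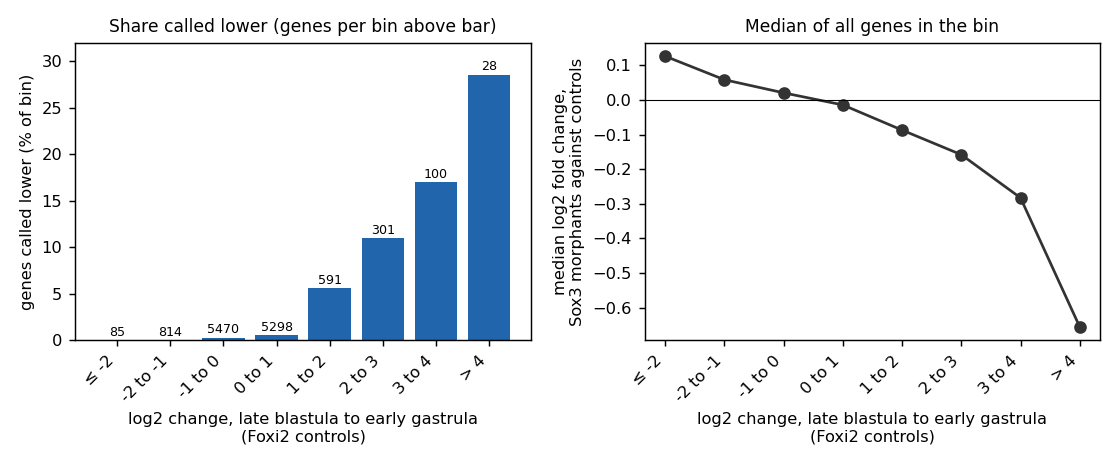
Genes are binned by their log2 change from the late blastula to the early gastrula in the Foxi2 controls (horizontal axis), with the percentage called lower in Sox3 morphants (left, number of genes above each bar) and the median log2 fold change in Sox3 morphants (right, line). The share called lower rises to 28.6% of the 28 genes of the last bin, and the median falls from 0.13 in the first bin to -0.66 in the last, which holds few genes.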

How the data were processed

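Whole X. tropicalis embryos were profiled by poly(A) RNA-seq (NEBNext libraries, Illumina NovaSeq). The authors deposited expected counts per gene, 1 column per library, from RSEM. The submitters' processing notes name RSEM 1.2.12 with Bowtie2 2.2.7, while the methods of the study name STAR and the version of the genome that RefSeq names UCB_Xtro_10.0. Expected counts share reads between alike gene copies, and 9.09% of the values were not whole. Among other lower genes named above, the values of irx1, irx2, krt7, spaca5 and a2ml1 were not all whole. All expected counts were rounded, 13909 genes passed edgeR's filterByExpr, and log2 CPM used a prior count of 2.

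Sox3 morphants and controls of stage 9 were compared in R 4.3.3 with edgeR 4.0.16 (TMM factors, glmQLFit and glmQLFTest, replicate number as a block). Genes were called at a p-value under 0.05, adjusted after Benjamini and Hochberg over all genes, and at least 2-fold. SE is the absolute log2 fold change divided by the square root of the F statistic of the test. It therefore rests on a spread estimated with information from other genes, and not on the 2 pairs alone. Genes with 0 counts in every library of a group were given as bounds against a floor of 3 counts per library. Several genes with at most 3 counts in each library of a group were given as count ratios with a counting interval. The labels do not say that a replicate number marks a shared batch, so the block follows the pairing set for the comparison, and the correlation of 0.838 stands on 2 pairs. Stage and factor differences were interaction terms over 8 and 10 libraries. DESeq2 1.42.0 was an alternative. The scripts were tested on simulated data. Replicates were not the same library deposited again, since the chi-square per gene was 46.8 between the morphants and 44.2 between the controls.

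Genes were named by rule: sox3, the genes the study ties to Sox3, the 20 lower and up to 12 higher genes (7 qualified) with the largest change that was at least 2-fold in both pairs, a mean of at least 1 CPM in the higher group and a symbol, list members, and the 6 largest differences by stage or factor. Other names were added after their values were seen, and some genes that the rule covers are not reported here. The comparison and the gene lists were chosen with earlier results of these data known. No mitochondrially encoded gene was in the tables, and promoter motifs were not analysed here.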

Additional observations from a re-analysis of the deposited data

Results flagged for a closer look

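5 of the 183 called genes differed between the stages in the test of the difference itself, given as the early gastrula effect minus the late blastula effect on the log2 scale. Among them the difference was 2.75 for LOC100496394, 2.57 for LOC101733854 and 2.198 for cass4, all lower at the late blastula and nearer to 0 later, and -3.19 for birc2, which was lower still at the early gastrula.

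88 of the called genes differed between Sox3 and Foxi2 knockdown in the test of that difference, given as the Sox3 effect minus the Foxi2 effect. The largest were uncharacterised genes with no count in 1 group of the Sox3 libraries. The size of their difference therefore depends on the prior count of edgeR's fit, left at its default, and not on the 2 used for log2 CPM. These genes were LOC116411632 at -10.79, LOC116411630 at -10.54, LOC101734722 at -7.31, LOC100497241 at 8.94 and LOC101734349 at 8.395. LOC116411630 had 222 and 120 counts in the controls and none in the morphants, at least 61.3-fold lower, and LOC116411632 was at least 48.8-fold lower. LOC100497241 had 461 and 51 counts in the morphants and none in the controls, at least 77.3-fold higher. The expected counts of these genes were not whole, so reads may have been divided among alike copies, and the bounds are uncertain. In early gastrula controls 1 and 2, LOC116411632 stood at 9.46 and 0 CPM and LOC100497241 at 4.31 and 0 CPM. LOC116411630 stood at 5.37 and 3.29 CPM there. Among genes with counts in every library, examples of the difference were -4.94 for gatm, -3.89 for LOC100496394, -2.64 for LOC101733854, -2.62 for cass4 and -1.26 for birc2. Both tests were run over all genes with adjusted p-values, and neither called a gene without the block. The late blastula Sox3 libraries that chose the called genes also enter both differences.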

How the results depend on the processing

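The count of lower genes, 140 with the pairs as a block, was between 140 and 167 with other scaling in edgeR, no rounding, a robust fit or every gene with at least 1 count. It was 0 without the replicate block, 89 by DESeq2 with the replicate number and 61 without it, 78 in a fit of all 8 Sox3 libraries and 261 by the adjusted p alone. The count of higher genes, 43, was 0 without the replicate block, 16 and 7 by DESeq2 with and without the number, 9 in the 8-library fit, 69 with every gene of at least 1 count, 66 with library size alone and 100 by the adjusted p alone. The cause of these shifts was not tested. 3 libraries with the block leave no residual degrees of freedom. Leaving out each library in turn therefore used the 8-library fit with a block for each pair, or 3 libraries without the block. The 8-library fit called 69, 77, 82 and 86 lower and 20, 20, 23 and 24 higher genes. In it, a library without its partner sets only the level of its own pair. The late blastula effect then rests on 1 remaining pair, and the spread on the early gastrula libraries and other genes. These counts are therefore not the support of 3 libraries. The 3 libraries without the block gave 0 to 0 for both.

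sox3 kept its sign and stayed under 2-fold in every alternative, between 0.47 and 0.61 on the log2 scale. cyp46a1.3 reversed, to -3.92 without morphant 1 and -3.99 without control 1 in the 8-library fit and to -8.18 without morphant 1 and without the block. Of 138 named genes, the 74 that were called all failed without the block, and the other 64 were called in neither fit. The stage difference, 11 genes, was called for 0 without the block, 74 by DESeq2, 97 with every gene of at least 1 count and 26 to 448 when 1 library was left out. The factor difference, 163 genes, was called for 0 without the block, 324 with every gene of at least 1 count and 80 to 237 when 1 library was left out. Chosen after seeing the data, the stage change from other Foxi2 controls of stage 9 gave 33 to 104 rising lower genes of 135 when 1 was left out and 6 with control 3 alone. Of genes with few counts, such as neurog3, depth limits the fold. The promoter motif description was not run.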
